A study of Rattus norvegicus with 119 samples.

Results

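The genes described here are 10 components of the synaptic vesicle release machinery in rat hippocampus: Snap25, Stx1a, Vamp1, Vamp2, Syt1, Cplx1, Cplx2, Syn1, Syn2 and Syp. They were found as the probe sets whose single gene symbol was one of these 10, which gave 10 of 14506 genes with such a probe set and 11 of the 29214 probe sets on the arrays. The 2 Stx1a probe sets held identical values in every array and were counted once, so 10 probe sets are described. Levels are log2 intensities from Affymetrix arrays, 1 hippocampus and 1 array per animal, in 3 strains: Fischer (40 animals), Long Evans (40) and Sprague Dawley (39). In each strain, males and females were either unexposed controls or had lead acetate in their food, at 250 ppm or 750 ppm and with perinatal or with postnatal timing, which made 10 groups per strain and 30 in all. Each group had 4 animals, except the Sprague Dawley male controls with 3. Perinatal exposure began in the dams 10 days before breeding and ended at weaning, postnatal exposure ran from birth to postnatal day 45, and all animals were killed on postnatal day 55. Perinatal animals had therefore been off lead since weaning, and postnatal animals since day 45. The series title asks whether genetic background changes the response of the brain to lead. No label names the litter of an animal. The p-values therefore measure the spread between animals, some of which may be littermates.

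Neurotransmitter release starts when SNARE proteins on the vesicle (the synaptobrevins Vamp1 and Vamp2) zip together with SNARE proteins on the plasma membrane (syntaxin-1, here Stx1a, and Snap25). Synaptotagmin-1 (Syt1) senses the calcium that enters with an action potential and triggers fusion, and complexins (Cplx1 and Cplx2) clamp and then promote the assembled complex. Synapsins (Syn1 and Syn2) tether the reserve pool of vesicles, and synaptophysin (Syp) is an abundant vesicle membrane protein that binds synaptobrevin. In hippocampus Vamp2 is the main synaptobrevin of forebrain synapses, Cplx2 is the complexin of most excitatory neurons, and Cplx1 is richer in inhibitory ones. Lead is known to interfere with calcium-dependent release.

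Promoter sequences are printed for the 4 genes that differed most between strains. In the RefSeq table (build GRCr8), 9 of the 10 genes had an entry and Snap25 had none. The stretches run 5′ to 3′ on the gene's strand, from 250 bases before the annotated gene start to 30 bases after it. Vamp2 lies at chr10:54292539-54292818 on the plus strand, Syn1 at chrX:3725495-3725774 on the plus strand, Cplx1 at chr14:1328823-1329102 on the plus strand and Stx1a at chr12:27306442-27306721 on the minus strand. Capitals mark the EGR letters GCGGGGGCG, their variant GCGTGGGCG and the cAMP response element TGACGTCA, on either strand (CGCCCCCGC and CGCCCACGC are the first pair read on the other strand).
Vamp2: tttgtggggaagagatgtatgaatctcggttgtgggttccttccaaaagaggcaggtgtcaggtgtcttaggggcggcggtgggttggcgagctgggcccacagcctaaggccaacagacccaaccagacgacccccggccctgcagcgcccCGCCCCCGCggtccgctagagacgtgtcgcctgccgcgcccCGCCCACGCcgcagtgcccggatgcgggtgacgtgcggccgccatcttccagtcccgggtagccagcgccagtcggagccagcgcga
Syn1: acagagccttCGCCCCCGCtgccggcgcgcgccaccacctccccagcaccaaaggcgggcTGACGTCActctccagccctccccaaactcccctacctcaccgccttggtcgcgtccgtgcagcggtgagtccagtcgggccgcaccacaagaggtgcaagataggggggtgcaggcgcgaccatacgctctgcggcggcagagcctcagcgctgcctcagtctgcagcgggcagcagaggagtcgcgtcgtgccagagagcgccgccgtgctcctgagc
Cplx1: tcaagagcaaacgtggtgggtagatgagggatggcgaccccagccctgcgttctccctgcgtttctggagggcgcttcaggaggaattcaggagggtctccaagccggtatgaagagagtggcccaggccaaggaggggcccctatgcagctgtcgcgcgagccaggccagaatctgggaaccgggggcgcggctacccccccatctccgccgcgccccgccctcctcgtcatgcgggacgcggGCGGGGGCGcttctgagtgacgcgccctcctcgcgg
Stx1a: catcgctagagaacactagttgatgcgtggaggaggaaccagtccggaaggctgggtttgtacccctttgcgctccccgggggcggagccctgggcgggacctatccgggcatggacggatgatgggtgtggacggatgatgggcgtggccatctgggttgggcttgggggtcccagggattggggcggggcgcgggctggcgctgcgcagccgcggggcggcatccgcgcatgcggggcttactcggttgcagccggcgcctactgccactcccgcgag

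The letters GCGGGGGCG, which zinc-finger factors of the EGR family are known to bind, were found within 300 bases (250 before to 50 after the start) in 6 of the 9 promoters: Syt1, Vamp2, Syp, Syn1, Syn2 and Cplx1. Of all 33469 promoters of that length in the table, 2.73% held them. These letters are rich in G and C, and so are the members' promoters. Among the 8777 promoters with at least 60% G and C, 8.98% held them, against 6 of 7 member promoters that passed this limit. Those 7 had 64.3% to 71.0% G and C, so 8.98% is not a share at like content. Vamp2 also held the variant GCGTGGGCG, found in 0.544% of all promoters. Syn1 had a second GCGGGGGCG that began 42 bases into the transcript, beyond the printed stretch, and a TGACGTCA that began at position -190 from it. The same element stood in Vamp1, at -71, and in 1.83% of all promoters. A GC box, GGGCGG, stood in all 9 member promoters and in 33.1% of all promoters (80.4% of the GC-rich ones), and overlapped the EGR letters in Syt1, Vamp2, Syp, Syn1, Syn2 and Cplx1. The half-site TTCAGCACC of the neuronal repressor REST was found in 0 of 9 and in 0.356% of all promoters. Stx1a, Vamp1 and Cplx2 held GC boxes and neither EGR form. The motifs were chosen with the values known, and a match describes letters only. No binding was measured.

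Animals of a group carried successive numbers in their labels, and levels differed between the animals with the lower and with the upper numbers of each group. Of all probe sets, 60.9% differed this way in Fischer, against 0.0993% in Long Evans and 18.9% in Sprague Dawley. The labels do not say what the numbers stand for. All fits below carry this split as a block within strain, each group holds animals of both parts, and values within each part are given where they bear on a call. In 8 arrays (3 in Long Evans, 5 in Sprague Dawley and 0 in Fischer), 3 X-linked genes (Eif2s3, Ddx3x and Pbdc1) lay on the side of the sex opposite to the label. Choroid plexus RNA varied widely: the mean of its 15 marker probe sets ran from 6.55 to 10.21 over animals. Hippocampal neuron markers were present throughout: Prox1 lay between 9.64 and 10.44, Neurod6 between 11.53 and 12.10 and Camk2a between 13.12 and 13.39.

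The levels of the release genes varied little between animals. Within group and label part, the residual standard deviation ran from 0.039 for Syt1 to 0.10 for Stx1a (log2), against a median of 0.128 over all probe sets. Strain held 75.1% of the variance of Vamp2, 71.9% of Syn1, 67.9% of Stx1a and 51.9% of Cplx1, while it held 3.3% for Vamp1 and 4.67% for Syp. Over all probe sets the median share was 15%. Because probe sets differ in how well they bind their target, levels are compared between animals and never between genes.

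Long Evans rats had the highest Vamp2, Syn1 and Cplx1, and Fischer rats the highest Stx1a. Sprague Dawley rats lay close to Fischer for the first 3 genes, and between the other strains for Stx1a. For each of these 4 genes, the 10 group means of the strain with the highest level lay above all 20 group means of the other strains, in controls and lead-exposed groups alike. The other 6 genes had group means that overlapped between strains. How many of all probe sets had group means that separated was not counted, so the separation is not shown to be particular to these genes. The plot of all animals shows both patterns.

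**Figure D1:**
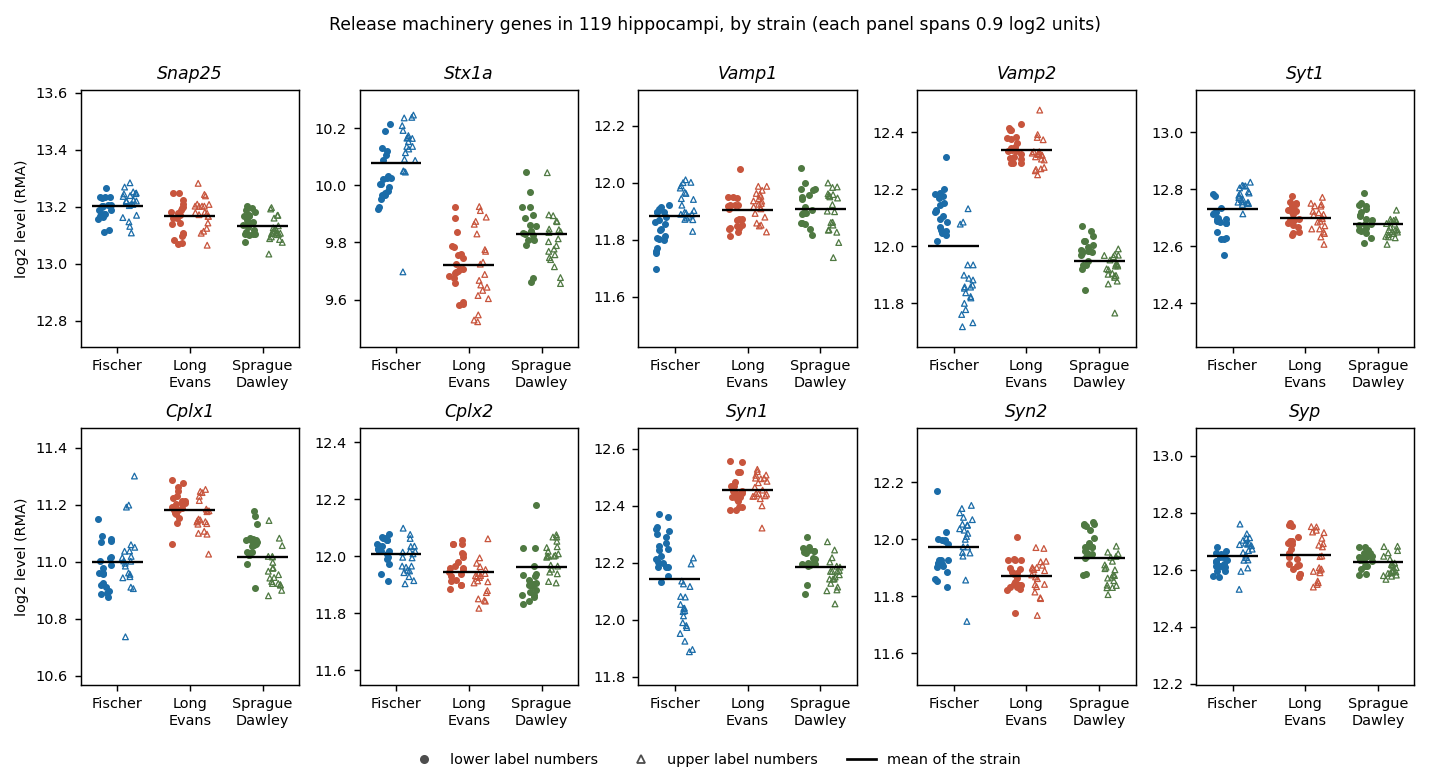
Log2 level (vertical axis, RMA intensity) of each of the 10 genes in every animal, by strain; filled circles are animals with lower label numbers in their group, open triangles those with upper numbers, and the bar is the mean of 40, 40 or 39 animals. Vamp2 and Syn1 are highest in Long Evans and split by label number in Fischer, while Vamp1 and Syp lie at about the same height in the 3 strains.

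Vamp2, the synaptobrevin of most forebrain vesicles, had its lowest, median and highest level at 12.25, 12.33 and 12.48 in Long Evans. In Fischer these were 11.72, 12.05 and 12.31, and in Sprague Dawley 11.77, 11.95 and 12.07. The Long Evans animals lay wholly above the Sprague Dawley animals, and 1 of 40 Fischer animals reached the Long Evans range. The difference was 0.34 ± 0.02 from Fischer (log2, SE; 1.26-fold; adjusted p = 1.7e-33) and Sprague Dawley lay lower than Long Evans by 1.31-fold (-0.39 ± 0.02, adjusted p = 1.4e-37). The size against Fischer depended on the label part, with 0.23 in animals of lower and 0.45 in those of upper numbers.

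Syn1, the synapsin encoded on the X chromosome, followed the same order. Long Evans animals ran from 12.32 to 12.56 with a median of 12.45, Fischer animals from 11.89 to 12.37 with a median of 12.17, and Sprague Dawley animals from 12.05 to 12.29 with a median of 12.19. In all, 0 of 39 Sprague Dawley and 3 of 40 Fischer animals reached the Long Evans range. Long Evans exceeded Fischer by 0.31 ± 0.02 (1.24-fold, adjusted p = 3.7e-34), with 0.20 in lower and 0.42 in upper numbers. Sprague Dawley lay below Long Evans by 1.21-fold (-0.27 ± 0.02, adjusted p = 1.8e-29).

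Cplx1, the complexin that is rich in inhibitory neurons, differed less and overlapped more between animals. Its median was 11.18 in Long Evans (range 11.03 to 11.29), 10.99 in Fischer (10.74 to 11.30) and 11.02 in Sprague Dawley (10.88 to 11.18). The group means separated, but 12 of 40 Fischer and 18 of 39 Sprague Dawley animals lay within the Long Evans range or above it. Long Evans exceeded Fischer by 0.18 ± 0.02 (1.14-fold, adjusted p = 1.3e-15) and Sprague Dawley lay below Long Evans by 1.12-fold (-0.16 ± 0.02, adjusted p = 3.6e-13).

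Stx1a, the plasma-membrane syntaxin, was highest in Fischer and lowest in Long Evans. Fischer animals had a median of 10.09 (9.70 to 10.25), Sprague Dawley animals 9.83 (9.66 to 10.05) and Long Evans animals 9.71 (9.52 to 9.93). The lowest Fischer value came from female perinatal 750 ppm replicate 4, which was also the lowest Fischer animal for Cplx1 (10.74) and Syn2 (11.71). Long Evans lay below Fischer by 1.28-fold (-0.36 ± 0.02, adjusted p = 8e-26) and Sprague Dawley below Fischer by 1.19-fold (-0.25 ± 0.02, adjusted p = 1.6e-16). Long Evans and Sprague Dawley differed by 0.11 ± 0.02 (adjusted p = 3.2e-05), a call that was lost among controls alone (0.11, adjusted p = 0.11).

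The remaining genes differed by under 1.1-fold. Syn2, the second synapsin of the set, was lower in Long Evans than in Fischer by 0.10 ± 0.02 (-0.101; adjusted p = 1.1e-08) and Cplx2, the complexin of excitatory neurons, lay at -0.064 ± 0.014 in that comparison (adjusted p = 2.7e-05). Snap25 was lower in Sprague Dawley than in Fischer (-0.071 ± 0.011, adjusted p = 5e-08). Vamp1, the second synaptobrevin, and Syp passed in no pair of strains. Vamp1 differences ran from 0.005 to 0.028 and Syp differences from -0.026 to 0.006, with 95% confidence intervals between -0.051 and 0.056.

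**Figure D2:**
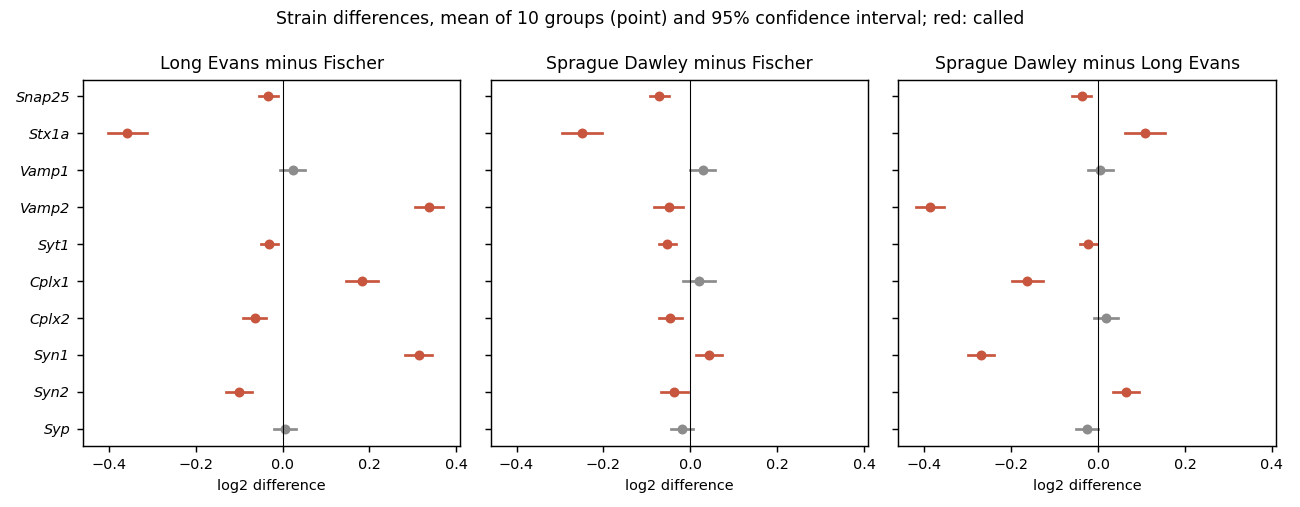
Difference in log2 level between strains (horizontal axis) for each gene, as the mean over the 10 groups of a strain with its 95% confidence interval, red where the adjusted p was under 0.05. Vamp2 and Syn1 of Long Evans lie 0.34 and 0.31 above Fischer and its Stx1a at -0.36, and Vamp2 of Sprague Dawley lies at -0.39 from Long Evans.

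In counts, 8 of 10 genes were called between Long Evans and Fischer (3 higher in Long Evans, 5 lower), where limma at an adjusted p under 0.05 called 64.3% of all probe sets (29.4% higher, 35% lower). Between Sprague Dawley and Fischer 7 of 10 were called (1 higher, 6 lower) against 46% of all (22.6% higher, 23.4% lower). Between Sprague Dawley and Long Evans 7 of 10 were called (2 higher, 5 lower) against 65.6% of all (36.2% higher, 29.4% lower). These shares are near the background, so the number of calls is not a result about the release genes. Sizes were larger than most for a few of them: 6.23% of probe sets differed by more than Vamp2, 7.46% by more than Syn1 and 5.32% by more than Stx1a between Long Evans and Fischer. The median difference of the 10 genes was -0.012 there, beside -0.014 over all probe sets.

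Of these 22 calls, 11 held with the same sign in all 11 alternative settings, which included each label part and the controls by themselves. They were Vamp2, Syn1, Cplx1, Stx1a, Syn2 and Cplx2 between Long Evans and Fischer, Stx1a and Snap25 between Sprague Dawley and Fischer, and Vamp2, Syn1 and Cplx1 between Sprague Dawley and Long Evans. The small differences of Sprague Dawley from Fischer were the least firm. Vamp2 was at -0.15 in lower and 0.043 in upper numbers, Syn1 at -0.035 and 0.12, Syn2 at 0.039 and -0.12, Syt1 at 0.001 and -0.11, and Cplx2 at -0.10 and 0.005. Syt1 also changed side between Long Evans and Fischer, at 0.018 in lower and -0.079 in upper numbers. Without the block, 4 of 10 genes were called between Sprague Dawley and Fischer, and 3 of 10 among controls alone.

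Hippocampus is a mixture of cells, and in bulk tissue fewer neurons and less RNA per neuron cannot be told apart. The marker counts that follow stand beside 29.4% of all probe sets called higher and 35% lower in Long Evans than in Fischer. General neuron markers had no common shift, with 4 of 10 higher, 4 lower and a median of 0.004. Hippocampal principal neuron markers had 4 of 12 higher and 3 lower (median -0.022). Interneuron markers had 7 of 14 higher and 3 lower (median 0.071), and neocortex markers 2 of 3 higher and 1 lower (median 0.15). Endothelial markers had 1 of 9 higher and 6 lower (median -0.13), and astrocyte markers 2 of 11 higher and 7 lower (median -0.082). Interneuron markers averaged from 9.73 to 10.08 over Long Evans animals (median 9.88), from 9.56 to 9.92 in Fischer (median 9.79) and from 9.68 to 9.86 in Sprague Dawley (median 9.75). Their part in the strain differences was not tested. The labels give no date or batch of the arrays, and handling that differed between strains cannot be told apart from strain. A strain difference in the sequence under a probe would also change its intensity, and that was not tested.

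Within Fischer, the vesicle genes Vamp2 and Syn1 were lower in the animals with upper label numbers, and several partner genes were higher. Vamp2 had a median of 12.12 in lower numbers (12.02 to 12.31) and 11.86 in upper numbers (11.72 to 12.13), and 3 of the 20 animals with upper numbers reached the range of the lower numbers. The difference was -0.25 ± 0.03 (adjusted p = 9e-08, n = 20 and 20). For Syn1 the medians were 12.25 and 12.04, and the difference -0.21 ± 0.03 (adjusted p = 9.2e-08). Stx1a (0.092), Vamp1 (0.087), Syt1 (0.086), Syn2 (0.061) and Syp (0.040) were higher in upper numbers, so 7 of 10 genes were called beside the 60.9% of all probe sets named above. The calls of Syn2 and Syp each failed on leaving out any of 21 of the 40 animals in turn. The median of all probe sets was -0.067 in this comparison. After each array was centred on its own median all 10 were called. After a further quantile normalization 5 were, and the calls of Vamp1 (0.017), Syn2 (0.004) and Syp (0.025) were lost. Cplx2 was called with opposite signs, at 0.059 after centring and -0.090 after quantile normalization. Vamp2 and Syn1 stayed lower under both (Vamp2 at -0.16 and -0.30, Syn1 at -0.12 and -0.26), and Stx1a and Syt1 stayed higher. Meninges markers moved with the label part in Fischer, with 10 of 11 lower (median -0.32), as did astrocyte markers, with 8 of 11 higher (median 0.11). Their part was not tested.

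In Sprague Dawley 4 of 10 genes were called between label parts beside 18.9% of all, with Syn2 (-0.097), Cplx1 (-0.086) and Vamp2 (-0.061) lower and Cplx2 (0.073) higher in upper numbers. The Cplx2 call failed on leaving out any of 13 of the 39 animals, after median centring (adjusted p = 0.076) and once the 8 arrays with a sex mismatch were removed (adjusted p = 0.056). The Vamp2 call failed in 1 fit for all arrays (adjusted p = 0.058) and after quantile normalization (adjusted p = 0.1). In Long Evans limma called 0 of 10 beside 0.0993% of all, and Cplx1 (-0.039) and Cplx2 (-0.048) had an unadjusted p under 0.05. The label part difference itself differed between Long Evans and Fischer for Vamp2 (by 0.22), Syn1 (by 0.22) and Syt1 (by -0.097), 3 of 10 genes beside 43.3% of all probe sets. Between Sprague Dawley and Fischer it differed for 9 of 10 beside 55.3%, and between Sprague Dawley and Long Evans for Syn2 (-0.095) and Cplx2 (0.12) beside 10.5%.

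**Figure D3:**
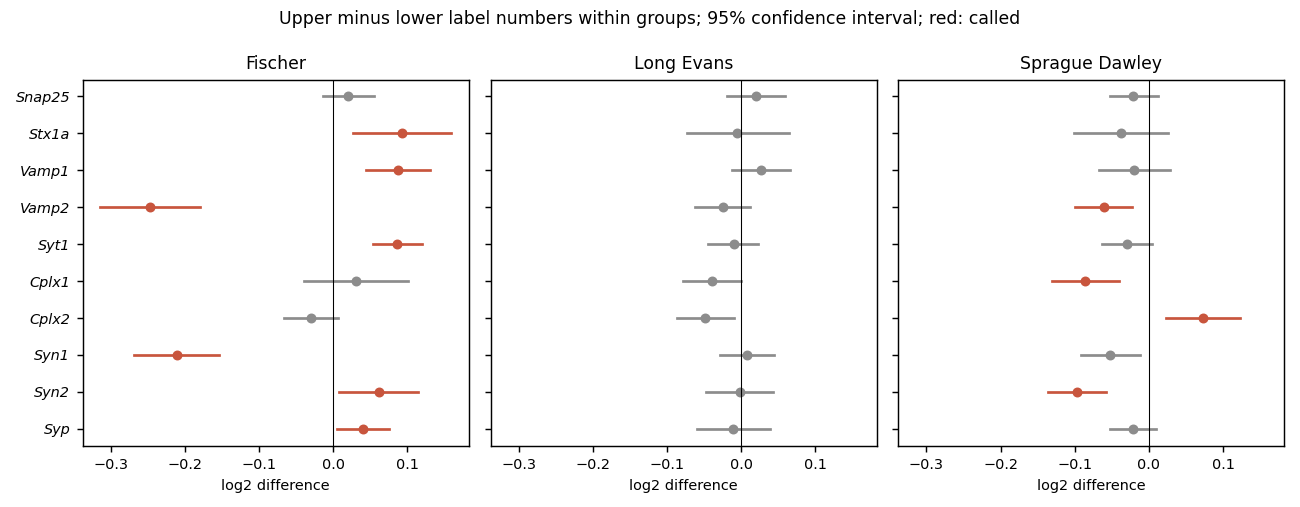
Difference in log2 level between animals with upper and with lower label numbers of the same groups (horizontal axis), with its 95% confidence interval, by gene and strain, red where the adjusted p was under 0.05. In Fischer, Vamp2 and Syn1 lie near -0.25 and -0.21 while 5 genes lie between 0.040 and 0.092, and in Long Evans no gene is red.

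Lead exposure had no detectable effect on any of the 10 genes in any strain. The mean lead effect compared the 8 exposed groups of a strain (32 animals) with controls of the same sex (8 animals, 7 in Sprague Dawley). Its 30 values ran from -0.045 (Vamp1 in Sprague Dawley) to 0.040 (Vamp2 in Fischer), and 0 had an adjusted or an unadjusted p under 0.05 in limma. All 95% confidence intervals lay between -0.12 and 0.12, which is -8.1% to 8.9% in level. Smaller effects were not detectable with these numbers of animals. Of all probe sets, 0% were called in Fischer, 0.195% in Long Evans and 0.0137% in Sprague Dawley.

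Vamp2 illustrates the range. In Fischer its controls ran from 11.73 to 12.18 with a median of 11.98 (n = 8), and the mean lead effect was 0.040 ± 0.041. In Long Evans its controls ran from 12.28 to 12.41 with a median of 12.32 (n = 8), and the effect was 0.007 ± 0.023. In Sprague Dawley its controls ran from 11.85 to 11.97 with a median of 11.92 (n = 7), and the effect was 0.028 ± 0.024. Group means of Vamp2 over all 10 groups spanned 0.080 in Fischer, 0.080 in Long Evans and 0.085 in Sprague Dawley, which was less than the 0.34 between Long Evans and Fischer. For Stx1a the group means spanned 0.16 in Fischer, 0.21 in Long Evans and 0.09 in Sprague Dawley, and for Syn1 0.098, 0.11 and 0.033.

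**Figure D4:**
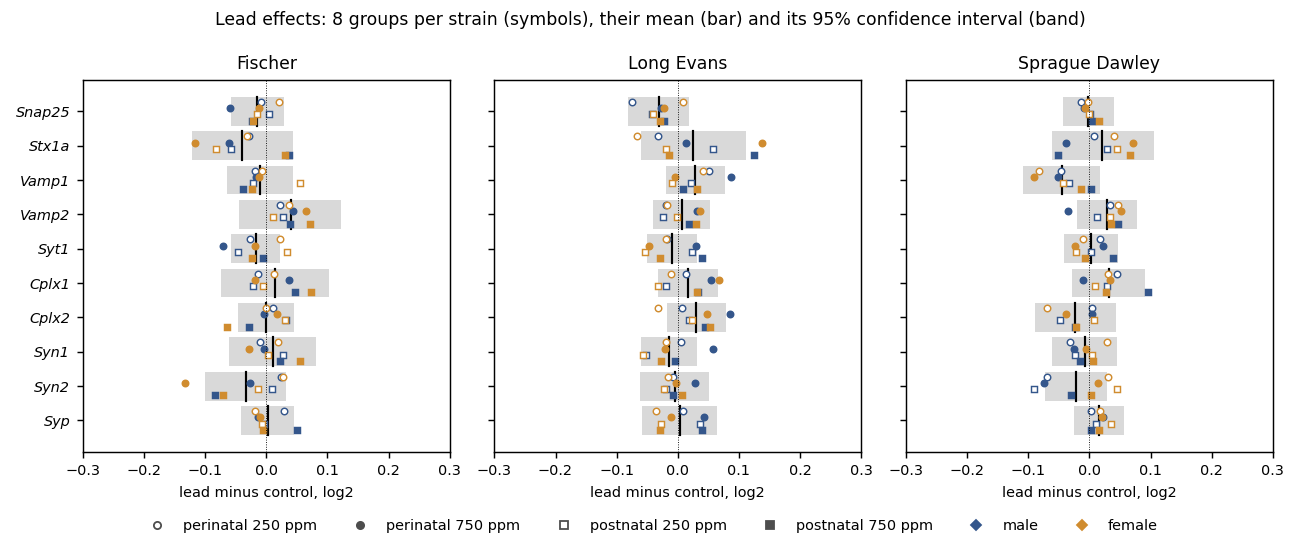
Lead minus control difference in log2 level (horizontal axis) for each gene and strain: symbols are the 8 exposed groups against controls of their sex (circles perinatal, squares postnatal, open 250 ppm, filled 750 ppm), the black bar is their mean and the grey band its 95% confidence interval. Every band includes 0 and all 240 symbols lie between -0.13 and 0.14.

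The 24 single contrasts, of 1 exposed group each against controls of its strain and sex, gave 240 values from -0.13 to 0.14. Within each strain and sex, the same controls served 4 contrasts. limma called 0 of 240, with a lowest adjusted p of 0.6, and 2 of 240 had an unadjusted p under 0.05. Those were Syn2 in Fischer females after perinatal 750 ppm (-0.13 ± 0.06, adjusted p = 0.77) and Vamp1 in Long Evans males after perinatal 750 ppm (0.087 ± 0.043, adjusted p = 0.67). In that Fischer group Syn2 lay at 11.93, 11.89, 11.95 and 11.71, and the low animal is the one named above. Of all probe sets, 0.0377% were called in at least 1 of 8 contrasts in Fischer, 0.24% in Long Evans and 0.0616% in Sprague Dawley.

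The strain difference of the mean lead effect, which addresses the question of the title, was called for 0 of 10 genes in each pair of strains. Its values ran from -0.074 to 0.064. Vamp1, at -0.074 ± 0.036 between Sprague Dawley and Long Evans, was the 1 gene with an unadjusted p under 0.05 (adjusted p = 0.98). Of all probe sets, 0.288% were called between Long Evans and Fischer, 0.0171% between Sprague Dawley and Fischer and 0.144% between Sprague Dawley and Long Evans.

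Between doses, Long Evans animals at 750 ppm had slightly higher levels than those at 250 ppm in all 10 genes, by 0.005 to 0.081, but none passed. The 10 genes were measured on the same arrays, so their shared direction is not 10 separate results. The groups compared also had different runs of label numbers, which cannot be told apart from dose. Over all probe sets the median difference was -0.002, and 7.06% had an unadjusted p under 0.05 in limma. Cplx1 (0.059 ± 0.021), Cplx2 (0.053 ± 0.021), Vamp2 (0.044 ± 0.020) and Stx1a (0.081 ± 0.038) had an unadjusted p under 0.05, with adjusted p from 0.49 to 0.67 in limma. Each of these 4 was higher at 750 ppm in 4 of 4 pairs of groups of the same sex and period. Those pairs make up the contrast by which the 4 genes were picked, so they add no separate support. Their means at 250 ppm lay close to those of controls, as for Cplx1, with 11.17 in controls, 11.15 at 250 ppm and 11.21 at 750 ppm. In Fischer, Syn2 was at -0.091 ± 0.029 (adjusted p = 0.22), lower at 750 ppm in 4 of 4 pairs, and at -0.074 without the low animal (adjusted p = 0.33). Its pairs were picked in the same way. In Sprague Dawley the 10 values lay between -0.019 and 0.013. The dose contrast was called for 0.222% of all probe sets in Fischer, 0.0479% in Long Evans and 0.00342% in Sprague Dawley, and for 0 of 10 genes in each. The dose effects were not compared between strains.

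Period and sex gave no calls among the 10 genes either. Postnatal minus perinatal differences ran from -0.040 to 0.046 (0 of 30 with an unadjusted p under 0.05 in limma), where 0.0274%, 0.065% and 0.0445% of all probe sets were called in Fischer, Long Evans and Sprague Dawley. Male minus female differences over all groups ran from -0.041 to 0.024, and only Snap25 in Sprague Dawley (-0.035 ± 0.016, adjusted p = 0.44) had an unadjusted p under 0.05. Here 0.202%, 0.178% and 0.0205% of all probe sets were called, and the X-linked Syn1 and Syp were not among them. The sex difference of the mean lead effect ran from -0.089 (Syn2 in Sprague Dawley) to 0.058 (Syp in Long Evans), with 0 unadjusted p under 0.05, and 0%, 0% and 0.00342% of all probe sets were called. Its 95% confidence intervals were wider, between -0.24 and 0.20. The sex contrasts rest on labels that 8 arrays go against, and the lead contrasts of Long Evans and Sprague Dawley use controls among these arrays. Without those arrays 0 of 10 genes were called as well.

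After group means and 1 label part term per strain were removed, Vamp2, Syn1 and Cplx1, the genes highest in Long Evans, also varied together in part. A label part difference particular to a group stays in these residuals. Pearson correlations of the residuals were computed for 45 pairs of genes in each strain, 135 relations in all, with permutation tests of 100000 resamples and Benjamini-Hochberg adjustment over the 135. Called were 10 pairs in Fischer, 11 in Long Evans and 10 in Sprague Dawley, of which 29 were positive and 2 negative. The share of called pairs among other probe sets was not computed, so these counts are not a result about the release genes. Syn1 and Cplx1 was the 1 pair called in all 3 strains, at r = 0.79 in Fischer (rho = 0.71, permutation p = 1e-05, adjusted p = 0.00034), 0.42 in Long Evans (rho = 0.39, p = 0.0072, adjusted p = 0.035) and 0.50 in Sprague Dawley (rho = 0.48, p = 0.0013, adjusted p = 0.011). The first p is the smallest that these permutations can give. These p-values are those of r. By rank the pair did not pass in Long Evans (adjusted p of rho = 0.057). Without the 2 animals farthest from the median of Syn1, r was 0.71, 0.50 and 0.57. In lower and upper label numbers r was 0.8 and 0.79 in Fischer, 0.62 and 0.22 in Long Evans, and 0.38 and 0.61 in Sprague Dawley. By rho, 10, 8 and 10 pairs passed in the 3 strains.

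Vamp2 and Syn1 went together in Fischer (r = 0.85, rho = 0.84, permutation p = 1e-05, adjusted p = 0.00034) and Sprague Dawley (r = 0.57, rho = 0.51, p = 0.00015, adjusted p = 0.0022). In Long Evans their r of 0.19 did not pass. In Fischer r was 0.81 in animals of lower and 0.89 in those of upper label numbers, and in Sprague Dawley 0.7 and 0.45. Vamp2 and Cplx1 had r = 0.78 in Fischer (rho = 0.72) and 0.65 in Long Evans (rho = 0.62). Fischer female perinatal 750 ppm replicates 3 and 4 lay at the ends for Cplx1, at 11.30 and 10.74. Without both (n = 38) r fell to 0.81 for Vamp2 and Syn1, 0.74 for Vamp2 and Cplx1 and 0.71 for Syn1 and Cplx1. Without these 2 animals r of Stx1a and Cplx1 went from 0.60 to 0.30 and that of Stx1a and Syn2 from 0.54 to 0.31. The size of both therefore depended on them. By rank Stx1a and Cplx1 did not pass (adjusted p of rho = 0.057), while Stx1a and Syn2 did (rho = 0.44, adjusted p of rho = 0.033).

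**Figure D5:**
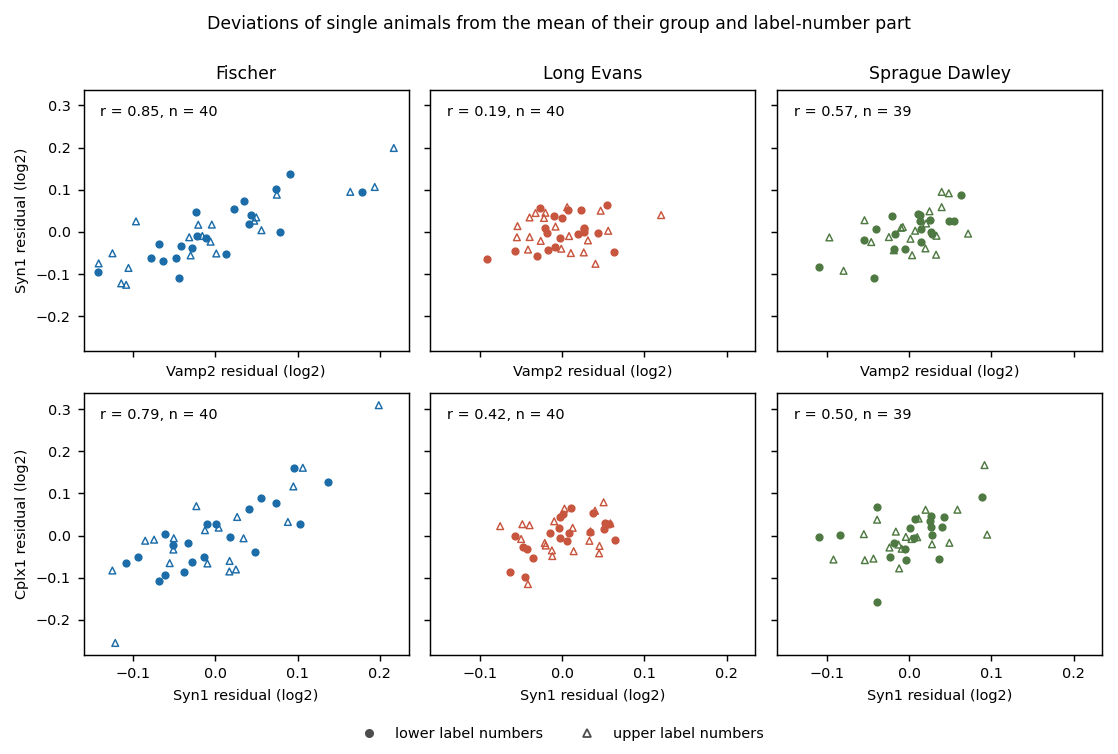
Residual of each animal after its group mean and the 1 label part term of its strain were removed, in log2 units on both axes. Vamp2 is set against Syn1 (upper row) and Syn1 against Cplx1 (lower row), by strain (40, 40 and 39 animals), with Pearson's r. The points rise together most clearly in Fischer, at r = 0.85 and 0.79, and Vamp2 and Syn1 show little relation in Long Evans, at r = 0.19.

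The calcium sensor and the membrane SNARE, Syt1 and Snap25, had r = 0.75 in Long Evans (rho = 0.73, permutation p = 1e-05, adjusted p = 0.00034) and 0.44 in Fischer (rho = 0.47, adjusted p = 0.029). For this pair, r in lower and upper label numbers was 0.75 and 0.76 in Long Evans, and 0.25 and 0.66 in Fischer. Snap25 and Syp had r = 0.56 in Sprague Dawley (rho = 0.58, permutation p = 0.00022, adjusted p = 0.003), with 0.22 in lower and 0.77 in upper numbers. The negative pairs were both in Sprague Dawley: Syn1 and Cplx2, at r = -0.57 (rho = -0.54, adjusted p = 0.0022), and Stx1a and Vamp1, at r = -0.54 (rho = -0.32, adjusted p = 0.005). By rank the latter did not pass (adjusted p of rho = 0.14), and its r was -0.33 without the 2 animals farthest from the median of Stx1a. Stx1a was not called with Vamp2 or Syn1 in any strain (r from -0.18 to 0.39). Levels of 2 genes on 1 array share that array's RNA and normalization, and the residuals of a group are tied by its mean, so these p-values are approximate. Whether correlations differed between strains was not tested.

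Partner genes of the release cycle were called between strains and not with lead. The lists were docking, priming and fusion partners (48 probe sets of 47 genes found of 55 listed), other vesicle proteins and transporters (29 of 27 found of 29) and vesicle endocytosis (35 of 27 found of 33). In each of the 3 lists 0 probe sets were called in the mean lead effect, dose, period, sex and strain-by-lead comparisons and in the 24 single contrasts. Between Long Evans and Fischer 16 of the 48 docking and fusion probe sets were higher in Long Evans and 22 lower. For vesicle proteins 16 of 29 were higher and 12 lower, and for endocytosis 10 of 35 were higher and 19 lower. List medians were -0.003, 0.058 and -0.048, beside -0.014 over all probe sets.

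Among docking and fusion partners, the synaptotagmin Syt3 (0.35 ± 0.02) and the vesicle GTPase Rab3a (0.18 ± 0.01) were higher in Long Evans than in Fischer, and the active-zone scaffold Erc2 (-0.29 ± 0.02) and the synaptotagmin Syt11 (-0.15 ± 0.01) were lower. Among vesicle proteins, synaptogyrin-1 (Syngr1, 0.37 ± 0.02), the vesicular zinc transporter Slc30a3 (0.26 ± 0.02) and the secretory carrier protein Scamp5 (0.25 ± 0.02) were higher. The proton pump subunit Atp6v1a (-0.35 ± 0.02) was lower by its probe set with the smallest p-value, and the value of its other probe set is not given. Among endocytosis genes, epsin Epn1 (0.37 ± 0.02), the amphiphysin Bin1 (0.32 ± 0.01), the endophilin Sh3gl1 (0.26 ± 0.01) and the clathrin adaptor subunit Ap2a1 (0.17 ± 0.01) were higher. These had the smallest p-values of the endocytosis list in limma, though more of its probe sets were called lower than higher. All adjusted p-values of these 12 genes were 1.5e-21 or smaller in limma. Against Sprague Dawley, Long Evans was again higher for Syt3 (Sprague Dawley minus Long Evans -0.50), Rab3a (-0.18), Syngr1 (-0.23), Scamp5 (-0.24), Epn1 (-0.38) and Bin1 (-0.30). Both comparisons use the same Long Evans animals. The p-values of these lists stand beside a background in which 64.3% and 65.6% of all probe sets were called.

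Between Sprague Dawley and Fischer, where 22.6% of all probe sets were called higher and 23.4% lower, the partner probe sets called were 8 higher and 20 lower of 48 for docking and fusion, 7 higher and 9 lower of 29 for vesicle proteins, and 6 higher and 8 lower of 35 for endocytosis. The calcium sensor Doc2b (-0.28 ± 0.03) and the synaptotagmins Syt12 (-0.23 ± 0.02) and Syt5 (-0.20 ± 0.02) were lower in Sprague Dawley, and the active-zone organiser Rims1 (0.16 ± 0.01) was higher. Syngr1 (0.14 ± 0.02) was higher and the endocytic adaptor Eps15 (-0.15 ± 0.02) was lower. Within animals of lower label numbers Syngr1 was at -0.021 and Eps15 at 0.14, so their direction rested on the label part.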

How the data were processed

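Hippocampal RNA of single rats was hybridised to Affymetrix arrays, 1 per animal. The authors deposited log2 values normalized by RMA (robust multi-array average) in Partek, per the submitters' processing notes; their versions and a genome build are not given in the sources used here. Of 29214 probe sets, 15310 had 1 gene symbol in the platform annotation.

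The R package limma (3.58.1, under R 4.3.3) was run on every probe set (lmFit, contrasts.fit, eBayes; two-sided), with the label part (lower or upper label numbers of a group) as a block, 1 term per strain. P-values were adjusted by Benjamini-Hochberg over all probe sets of a contrast, and a call is an adjusted p under 0.05. Lead, dose, period and sex were fitted within strain, and strain differences in 1 fit of the 30 groups. Residual correlations and their permutation tests used numpy 2.4.6, with ranks from scipy 1.17.1. The scripts were tested on simulated data. Array medians ran from 7.355 to 7.566 and pairs of arrays correlated at 0.9789 to 0.9975. The number of arrays limits the precision.

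Named were all 10 members and, of each partner list, up to 4 called genes with the smallest p-values per comparison, of which a selection is printed. A partner gene with more than 1 probe set was named by the probe set with the smallest p-value in that comparison. The members, lists and block were chosen with earlier results of these data known. Alternatives were no block, each label part alone, 1 fit for all arrays, further quantile normalization, median centring, a filter on dim probe sets, array weights, a choroid plexus covariate, leaving out the 8 arrays against their sex label, controls alone, and each animal left out in turn.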

Additional observations from a re-analysis of the deposited data

Results flagged for a closer look

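Of 290 groups of 4 animals tested gene by gene, 9 (3.1%) held 1 animal far from the other 3. Chance marks about 1 group in 20 this way. In Long Evans, Syt1 lay at 12.632 in male postnatal 250 ppm replicate 3 (others 12.713 to 12.72), Snap25 at 13.085 in female control replicate 2 (13.238 to 13.248) and Syp at 12.68 in male control replicate 3 (12.575 to 12.589). Syn1 lay there at 12.484 in male perinatal 250 ppm replicate 1 (12.434 to 12.442) and Cplx2 at 12.059 in female postnatal 750 ppm replicate 1 (11.932 to 11.944). In Fischer, Stx1a lay at 9.919 in female perinatal 250 ppm replicate 2 (10.115 to 10.137), Vamp2 at 11.778 in male perinatal 750 ppm replicate 4 (12.067 to 12.107) and Syp at 12.76 in female perinatal 750 ppm replicate 3 (12.596 to 12.611). In Sprague Dawley, Vamp2 lay at 11.918 in female perinatal 250 ppm replicate 3 (11.986 to 11.999).

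The difference between upper and lower label numbers itself differed between strains in limma, with the values below as differences of log2 differences ± SE. Between Long Evans and Fischer these were Syt1 -0.097 ± 0.02 (adjusted p = 2.4e-05), Vamp2 0.222 ± 0.033 (adjusted p = 1.8e-08), Syn1 0.218 ± 0.03 (adjusted p = 1.7e-09). Between Sprague Dawley and Fischer they were Syt1 -0.116 ± 0.02 (adjusted p = 4.6e-07), Stx1a -0.13 ± 0.046 (adjusted p = 0.013), Vamp1 -0.107 ± 0.028 (adjusted p = 0.00082), Vamp2 0.186 ± 0.033 (adjusted p = 1.2e-06), Syp -0.062 ± 0.025 (adjusted p = 0.031), Syn1 0.159 ± 0.03 (adjusted p = 4.7e-06), Syn2 -0.158 ± 0.031 (adjusted p = 7e-06), Cplx1 -0.117 ± 0.036 (adjusted p = 0.0045), Cplx2 0.102 ± 0.027 (adjusted p = 0.00092). Between Sprague Dawley and Long Evans they were Syn2 -0.095 ± 0.031 (adjusted p = 0.031), Cplx2 0.121 ± 0.027 (adjusted p = 0.001). What the label numbers stand for was not tested.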

How the results depend on the processing

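All counts of release genes called for lead, dose, period, sex and strain-by-lead were 0 in the 210 values from 21 results and 10 settings and in the 952 values that left out 1 animal. Of 10 genes called between strains, Sprague Dawley minus Fischer gave 4 with no label part term and 3 with only controls (7 as reported), and Sprague Dawley minus Long Evans gave 3 with only controls (7 as reported). Leaving out 1 animal gave 8 in every case for Long Evans minus Fischer, 6 to 7 for Sprague Dawley minus Fischer, 6 to 8 for Sprague Dawley minus Long Evans, 5 to 7 for the label part in Fischer, 3 to 5 in Sprague Dawley and 0 in Long Evans. Directions reversed for Cplx2 between label parts in Fischer after median centring (0.059). They also reversed for Sprague Dawley minus Fischer in lower numbers (Syn1 -0.035, Syn2 0.039, Syt1 0.001, Eps15 0.137, Syngr1 -0.021) and in upper numbers (Vamp2 0.043, Cplx2 0.005), and for Syt1 in Long Evans minus Fischer in lower numbers (0.018). With residuals from group means only, 16 pairs of genes were called in Fischer and 20 in Sprague Dawley (10 each as reported). The causes were not tested, beyond the smaller number of animals in the subsets. No paired analysis was possible because the labels give no replicate numbers. The replicate numbers used here only name the animals of a group. The comparison of label parts between strains, and the Fischer correlations without 2 animals, were chosen after seeing the data.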
